A study of Mus musculus with 27 samples.

Results

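The genes described here encode enzymes that hydroxylate collagen inside the cell and crosslink it outside the cell: the lysyl oxidases Lox, Loxl1, Loxl2, Loxl3 and Loxl4, the lysyl hydroxylases Plod1 and Plod2, the prolyl 4-hydroxylase subunits P4ha1 and P4ha2, and the prolyl 3-hydroxylase Leprel1. They were chosen by name, as 10 of the 37991 genes quantified, and all 10 were measured and passed the filters on low counts. The cells came from the calvaria, the flat bones of the skull vault, of neonatal C57BL/6J-Col3.6 CFP mice aged 5 to 9 days. This strain carries a cyan fluorescent protein (CFP) transgene driven by Col3.6, a fragment of a collagen type I promoter that is active in cells of the osteoblast lineage. After 4 days of growth the CFP-positive cells were sorted, returned to culture and given ascorbic acid, 4 mM β-glycerol phosphate and 10% fetal bovine serum. RNA was sequenced on days 2, 4, 6, 8, 10, 12, 14, 16 and 18. The 9 groups share strain, sorting protocol and medium, and day is the only difference their labels give. Differences in culture or library preparation between days cannot be told apart from day. There was no undifferentiated control, and the number of animals pooled is not given in the sources used here.

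Collagen chains are modified in the endoplasmic reticulum, where prolyl 4-hydroxylases make the hydroxyproline that stabilises the triple helix and lysyl hydroxylases make the hydroxylysine used in glycosylation and in the stronger crosslinks. These hydroxylases need ascorbic acid, which the medium supplied. After secretion and trimming of the propeptides, the copper-dependent lysyl oxidases convert lysine and hydroxylysine to aldehydes, which then condense into the covalent crosslinks of bone matrix and of elastin.

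Each time point was represented by 3 profiles that carried 1 barcode in different sequencing lanes. Over 9352 to 10045 genes with whole-number counts the spread between these profiles stayed within sampling noise (chi-square per degree of freedom 0.999 to 1.017, p from 0.0513 to 0.537), so they were summed and counted as 1 sample, although the study describes them as triplicates. Counted this way no time point has a replicate, and the SD over its 3 profiles reflects sequencing and quantification alone. The p-values of the fits described below measure the scatter of 9 libraries around a line or curve in day. The summed libraries held 22470195 (day 10) to 62009157 (day 12) counts. Levels are in TPM, the relative abundance of transcripts on a scale per transcript length, after division by the upper quartile of each profile. This SD was at most 2.69% of the level for Lox, Loxl2 and Plod2 and reached 38.7% for Leprel1. The 11 osteoblast markers summed to 11030 to 16730 TPM on days 2 to 6 and 29420 to 36780 TPM on days 14 to 18, and 8 of the 11 rose. Sparc (8026 TPM on day 2), Col1a1 and Col1a2 carried most of this sum, and Runx2 stood at 42.0 to 65.7 TPM. The 3 markers that did not pass the line described below were Sp7 (log2 change -1.23), Spp1 (-1.17) and Alpl (2.22). Sp7 stood at 32.3 TPM on day 2, 2.77 on day 8 and 10.6 on day 18. Alpl went from 9.13 TPM on day 2 to 0.467 on day 6 and 17.6 on day 18. Spp1 was at 1012 TPM on day 6 and 532 on day 18. Among markers of mature osteoblasts and osteocytes, Ibsp, Bglap and Dmp1 were near the floor up to day 10. Ibsp ranged from 0.0965 to 0.958 TPM, Bglap from 0.224 to 1.88 TPM and Dmp1 from 0.0387 to 1.55 TPM. Phex, another such marker, left the floor sooner: it ranged from 0.338 to 0.675 TPM up to day 6 and had reached 6.59 TPM by day 10. Markers of other cells moved as well, and of all genes tested in the fit described below 28.3% rose and 26.1% fell. Monocyte and macrophage genes summed to 24.1 to 61.7 TPM on days 2 to 6 and 522 to 2014 TPM on days 14 to 18 (6 of 7 rose), adipocyte genes to 3.21 to 7.44 and 188 to 407 TPM (5 of 5 rose), and smooth muscle genes to 3037 to 6185 and 989 to 1133 TPM (5 of 5 fell). The part of these shifts in the results for the enzymes was not tested, and in such bulk RNA fewer cells of a type and less RNA per cell cannot be told apart.

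Over the time course Loxl2, Loxl3 and Loxl4 fell, Plod1, Plod2 and Leprel1 rose, and Lox, P4ha2, P4ha1 and Loxl1 moved by smaller amounts. A straight line in day was fitted across all genes with edgeR (quasi-likelihood test), p-values were adjusted over all genes tested after Benjamini and Hochberg, and the threshold was 0.05. It called 8 of the 10 enzymes, against 54.3% of all 15659 genes tested. Of the 10, 4 rose, against 28.3% of all genes, and 4 fell, against 26.1%. The median of the fitted log2 changes over the span from day 2 to day 18 came to -0.08 over the 10 enzymes and 0.05 over all genes tested. A natural spline, which also follows a rise and later fall, called 9 of the 10, against 57.5% of 16256 genes. These counts stand beside a background in which most genes changed, so they mark no property of the enzymes as a set.

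**Figure D1:**
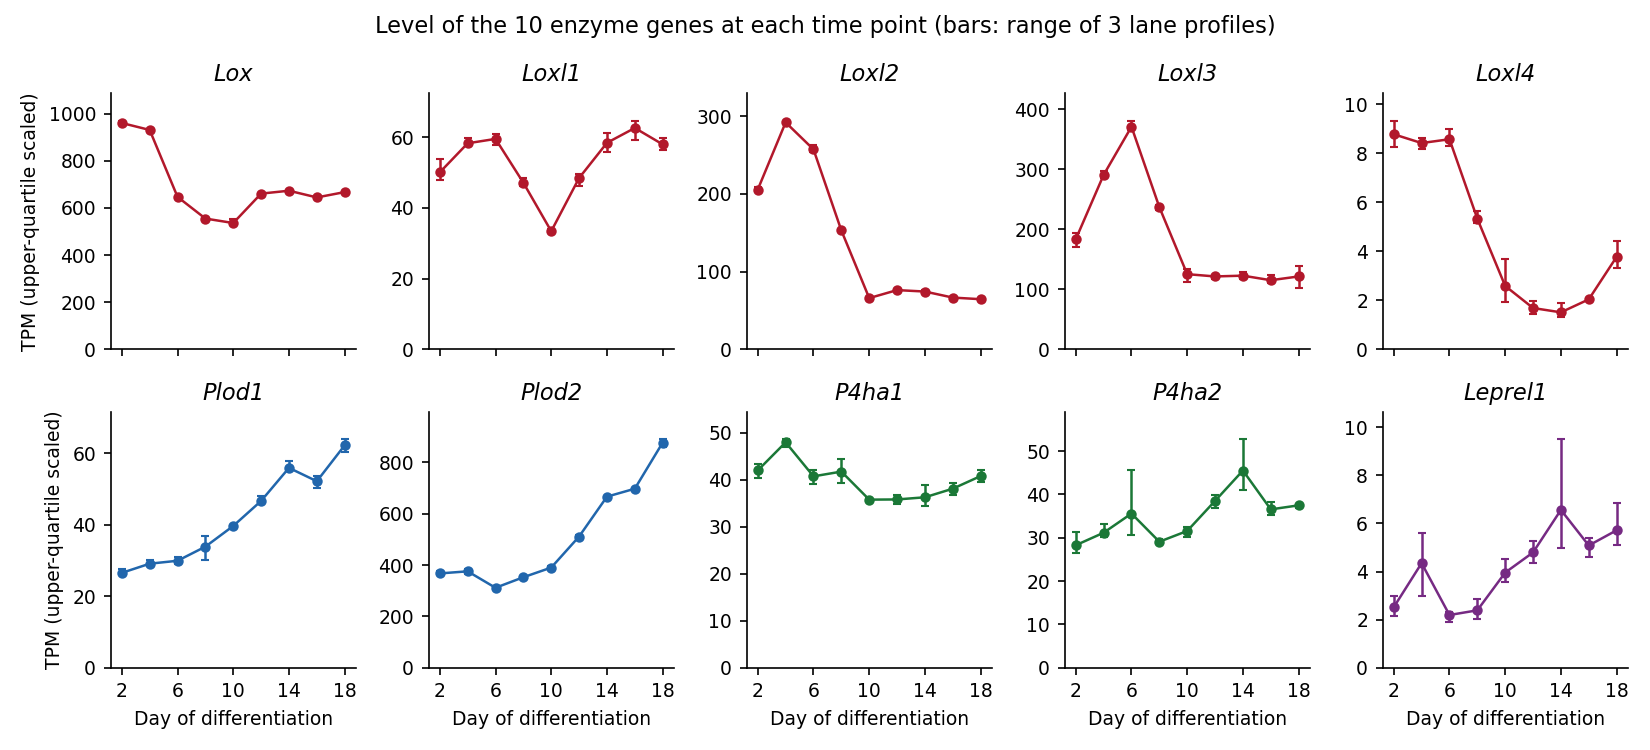
Level of each of the 10 enzyme genes in upper-quartile scaled TPM (vertical axis from 0, a scale for each gene) against day of differentiation, with points for the mean of 3 lane profiles and bars for their range. Loxl2, Loxl3 and Loxl4 stood on day 10 well under their highest levels of days 2 to 6, while Plod2 climbed from 312 on day 6 to 877.5 by day 18.

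Among the lysyl oxidases, which carry out the crosslinking step itself, 4 of 5 fell and none rose, against 26.1% and 28.3% of all genes tested. Lox, the founding enzyme of the family, was the most abundant of the 10 genes, with a mean of 697 ± 149 TPM (SD over 9 time points). It lies on the minus strand of chromosome 18, from 52675723 to 52689521 in NCBIM37, and its longest coding transcript has 8 exons. Lox stood at 960.1, 930.6, 647, 555, 536, 660.5, 673, 644 and 667 TPM on the 9 days in order. The first pair of days lay above all others, day 10 was lowest, and from day 12 the level stayed within a narrow band. The largest step was the 1.44-fold fall from day 4 to day 6, and 4.8% of 13022 genes with a mean of at least 1 TPM fell at least as much in that interval. That interval was picked as the largest fall of Lox, so a low percentage follows in part from the choice. The line gave a log2 change of -0.62 (SE 0.225, edgeR adjusted p = 0.0381), and the spline passed more clearly (edgeR adjusted p = 0.000104). The straight-line call rested on single days: the edgeR adjusted p was 0.224 without day 2, where the change shrank to -0.38, 0.12 without day 4, and 0.0565 to 0.0581 without day 12, 14 or 16. Days 14 to 18 against days 2 to 6 gave -0.47 (edgeR adjusted p = 0.0646).

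Loxl1, the relative of Lox best known for its role in elastic fibres, is on chromosome 9 (58135530 to 58161019, minus strand). Its level was 50.0, 58.3, 59.5, 47.1, 33.4, 48.4, 58.4, 62.6 and 57.95 TPM on the 9 days in order. The transcript length behind these levels, described further on, was 2443 bases on day 16 and 3013 on day 18. Day 10 was a single low point, and the days on either side formed a pair of plateaus at like levels. Neither the line (log2 change 0.14, SE 0.226, edgeR adjusted p = 0.629) nor the spline (edgeR adjusted p = 0.197) passed the threshold. The sign of the change turned to -0.06 without day 18 (edgeR adjusted p = 0.854), and the spline passed without day 14 (edgeR adjusted p = 0.0299).

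Loxl2, Loxl3 and Loxl4 form the branch of the family with scavenger receptor cysteine-rich domains. Loxl2 (chromosome 14, 70008978 to 70095640, plus strand) measured 206, 292, 257, 153, 65.9, 76.2, 74.3, 66.5 and 64.5 TPM on the 9 days in order. All libraries up to day 8 lay above all later ones, and from day 10 on the level hardly moved. Its fitted log2 change of -2.49 (SE 0.377, edgeR adjusted p = 0.000382) was the lowest of the 10 enzymes.

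Loxl3 (chromosome 6, 82984167 to 83002556, plus strand) measured 183.5, 291, 371, 237, 125, 121.5, 123, 115 and 121.5 TPM on the 9 days in order. It peaked on day 6, after Loxl2, and its last 5 levels differed little, with profile SDs of up to 18.2 TPM on day 18. The line gave -1.83 (SE 0.389, edgeR adjusted p = 0.00262). This is the slope over the whole course, a fitted 3.55-fold fall, and because the level first rose, day 2 itself was only 1.51-fold above day 18. The measured day 2 level was likewise 3.19-fold above day 18 for Loxl2, against a fitted 5.63-fold. Loxl3 shares exon sequence with Htra2 on the opposite strand, which had 7315 counts over all profiles, and since the sources used here do not state that strand was used in counting, reads of the shared exons cannot be assigned with certainty. Counts of Loxl2 and Loxl3 were not whole numbers in all 27 profiles, so part of their reads was divided with other genes.

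Loxl4 (chromosome 19, 42668472 to 42687303, minus strand) was the rarest lysyl oxidase, at 8.78, 8.42, 8.57, 5.33, 2.585, 1.68, 1.51, 2.04 and 3.77 TPM on the 9 days in order. The first 3 libraries stood together, the level then dropped, and the last library stood above the 4 before it. Behind these levels were 858 counts on day 2, 102 on day 10 and 136 on day 14, and on day 10 the SD over the 3 profiles was 36.4% of the level. The line gave a log2 change of -2.22 (SE 0.587, edgeR adjusted p = 0.00872), and it was -3.42 without day 18 (edgeR adjusted p = 0.000562). Its measured day 2 level was 2.33-fold above day 18, against a fitted 4.67-fold.

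These 3 genes took their largest step down in the same interval, from day 8 to day 10, with falls of 2.32-fold for Loxl2, 1.89-fold for Loxl3 and 2.06-fold for Loxl4. In that interval 2.75%, 5.29% and 4.01% of the 13022 genes fell at least as much, and the median gene fell 1.03-fold. Loxl1 also took its largest step down there, 1.41-fold, and 14.4% of these genes fell at least as much. The interval was picked as the largest fall of each gene, so low percentages follow in part from that choice. The 2 libraries of this step have no replicates, and the day 10 library was the shallowest. The splines of Loxl2, Loxl3 and Loxl4 passed (edgeR adjusted p = 2.66e-05, 1.94e-05 and 1.76e-07). The 5 smooth muscle markers, which fell as well, summed to 1279 to 2096 TPM on days 8 to 12, and their part in the fall of the lysyl oxidases was not tested. Every one of the 20 alternative analyses kept the falls of Loxl2, Loxl3 and Loxl4 past the threshold. The log2 changes ran from -2.81 to -1.94 for Loxl2, from -2.21 to -1.45 for Loxl3 and from -3.42 to -1.90 for Loxl4. The values -1.94, -1.45 and -1.90 came from days 14 to 18 against days 2 to 6. That is a difference between groups of days, whereas the others are slopes over the whole span.

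In the make-up of the lysyl oxidase family, Lox held 48.1% of the summed TPM on day 6, its lowest share, and 72.9% on day 18, its highest. Loxl3 took its highest share, 27.6%, on day 6, when Loxl2 held 19.1%. This order depends on transcript length: with the length of the longest coding transcript, described further on, Loxl3 held 14.8% on day 6, Loxl2 23.8% and Lox 56.2%. By day 16 Loxl3 was down to 12.9%, and by day 18 Loxl2 was at 7.05%. Loxl4 never exceeded 0.638%, and Loxl1 moved between 3.55% on day 2 and 7.03% on day 16. With the coding length Loxl1 held 5.84% on day 16 and 6.74% on day 18. The sum of the 5 genes was highest on day 4, at 1580 TPM, and lowest on day 10, at 763 TPM.

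**Figure D2:**
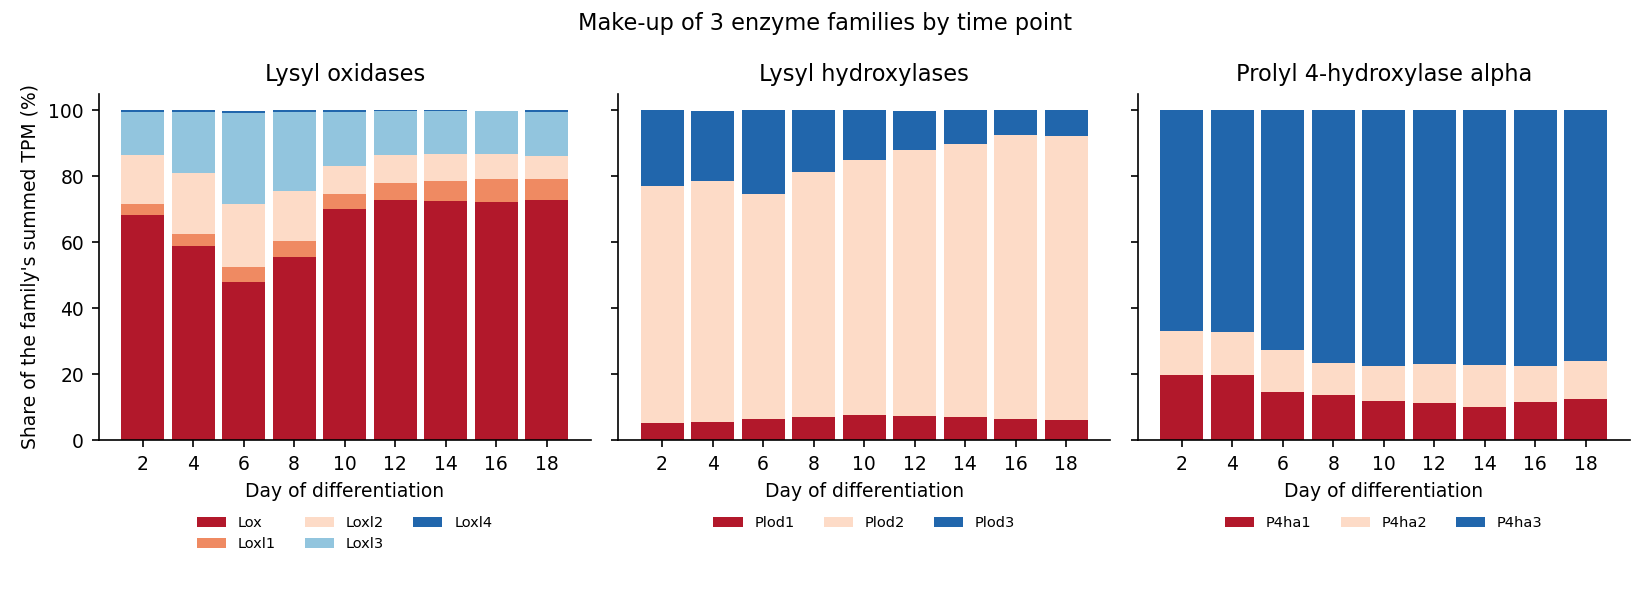
Share of each gene (percent of the summed TPM of its family, stacked to the full family) against day for 5 lysyl oxidases, 3 lysyl hydroxylases and 3 prolyl 4-hydroxylase alpha subunits. Lox ranged from 48.1% on day 6 to 72.9% on day 18 of its family, Plod2 held at least 68.1% of the lysyl hydroxylases, and P4ha3 at least 67.0% of the alpha subunits.

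Both lysyl hydroxylases of the set rose. Plod1, the enzyme that hydroxylates lysines within the triple helix, is on chromosome 4 (147283862 to 147310876, minus strand). Plod1 stood at 26.5, 29.1, 29.9, 33.9, 39.65, 46.6, 55.9, 52.1 and 62.2 TPM on the 9 days in order. Day 16 broke an otherwise unbroken climb, and the day 18 level was 2.34 times that of day 2. The straight line described it with the smallest SE of the 10 enzymes relative to its change, a log2 change of 1.19 (SE 0.122, edgeR adjusted p = 5.48e-05).

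Plod2, the enzyme of the telopeptide lysines whose hydroxylation leads to pyridinoline crosslinks, is on chromosome 9 (92437061 to 92503266, plus strand). Its level was 368, 376, 312, 353, 391, 512, 667, 698 and 877.5 TPM on the 9 days in order. The first 5 libraries lay between 312 and 391 TPM and each of the last 4 above all of them. The line gave a log2 change of 1.22 (SE 0.211, edgeR adjusted p = 0.000799), and both genes passed the spline (edgeR adjusted p = 7.88e-06 for Plod1 and 1.26e-06 for Plod2). Both rises held in all 20 alternatives, with log2 changes from 0.92 to 1.28 for Plod1 and from 0.97 to 1.51 for Plod2. The lower ends, 0.92 and 0.97, are differences of days 14 to 18 against days 2 to 6 and not slopes over the whole span. Monocyte, macrophage and adipocyte markers rose over the same days, and their part in the rise of Plod1 and Plod2 was not tested.

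P4ha1 and P4ha2 encode catalytic alpha subunits of prolyl 4-hydroxylase, which work in a tetramer with the beta subunit P4hb. P4ha1 (chromosome 10, 58786044 to 58836052, plus strand) was the steadiest of the 10 genes, at 41.95, 47.9, 40.7, 41.7, 35.7, 35.8, 36.2, 38.1 and 40.75 TPM on the 9 days in order. Its highest level was 1.34 times its lowest, and in 7 of the 8 steps along its ordered levels the profile ranges of neighbours overlapped. The line did not pass (log2 change -0.29, SE 0.138, edgeR adjusted p = 0.0967), but passed without day 18 (-0.47, edgeR adjusted p = 0.0204). The spline passed (edgeR adjusted p = 0.0156) and no longer did without day 4 (0.0628) or day 12 (0.078).

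P4ha2 (chromosome 11, 53913597 to 53945167, plus strand) measured 28.3, 31.2, 35.6, 29.1, 31.6, 38.5, 45.5, 36.55 and 37.5 TPM on the 9 days in order. The days from 12 on lay above all earlier ones, with day 14 the highest and its SD over the 3 profiles 6.28 TPM. The fitted log2 change of 0.36 (SE 0.127, edgeR adjusted p = 0.0323) was small, and the spline gave an edgeR adjusted p of 0.0212. The call of P4ha2 was lost in 8 of 20 alternatives: with TMM factors (edgeR adjusted p = 0.0546), with DESeq2 (adjusted p = 0.0503), without the filter (edgeR adjusted p = 0.0846) and without day 2, 4, 6, 12 or 14 (edgeR adjusted p = 0.051 to 0.0674). Its spline call was lost without the filter (edgeR adjusted p = 0.0501), without day 6 (0.0534), 12 (0.0564) or 14 (0.0925), and with 2 degrees of freedom (0.0696).

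Leprel1, which encodes prolyl 3-hydroxylase 2, an enzyme that modifies a few prolines of fibrillar and basement membrane collagens, is on chromosome 16 (25959374 to 26105870, minus strand). Its level was 2.52, 4.35, 2.20, 2.39, 3.96, 4.80, 6.565, 5.09 and 5.72 TPM on the 9 days in order. Apart from day 4, the early libraries lay below all from day 10 on. The summed estimated counts ran from 148 on day 8 to 517 on day 12. On day 14 the SD over 3 profiles reached 38.7% of the level, and day 4 had a short weighted transcript length of 2428 bases against 3283 on days 6, 8 and 12. The fit to the counts, which does not use that length, gave a log2 change of 1.22 (SE 0.269, edgeR adjusted p = 0.00321), with the spline also past the threshold (edgeR adjusted p = 0.000815). The rise held in all 20 alternatives, from 0.95 to 1.33, where 0.95 is the difference of days 14 to 18 against days 2 to 6. Leprel1 shares exon sequence with Gm4524 on the opposite strand, which had 386 counts over all profiles, and its own counts were not whole in all 27 profiles.

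Promoter windows of P4ha1, P4ha2, Plod1 and Loxl4 were taken from the RefSeq table of GRCm38.p6 (250 bases before the start of each gene). This build differs from that of the gene positions above. No window was used for Lox, Loxl1, Loxl2, Loxl3, Plod2 and Leprel1, so their promoters were not searched. The windows are shown because they were at hand for these genes, and were not picked by how the genes changed. Capitals mark ACGTG on either strand (CACGT on the strand printed when the match is on the other), the core letters bound by hypoxia-inducible factors and by several E-box factors.
P4ha1 (chr10:59323046-59323295, plus strand): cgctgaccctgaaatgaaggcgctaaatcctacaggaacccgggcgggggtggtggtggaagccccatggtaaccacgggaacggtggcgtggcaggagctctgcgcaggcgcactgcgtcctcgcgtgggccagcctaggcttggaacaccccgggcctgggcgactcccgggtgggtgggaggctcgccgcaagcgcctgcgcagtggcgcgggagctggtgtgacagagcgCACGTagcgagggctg
P4ha2 (chr11:54100674-54100923, plus strand): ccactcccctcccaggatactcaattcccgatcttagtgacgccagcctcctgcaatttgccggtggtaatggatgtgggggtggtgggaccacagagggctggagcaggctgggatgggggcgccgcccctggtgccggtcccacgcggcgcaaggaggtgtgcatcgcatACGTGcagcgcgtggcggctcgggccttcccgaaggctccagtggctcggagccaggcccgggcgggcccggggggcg
Plod1 (chr4:147936777-147937026, minus strand): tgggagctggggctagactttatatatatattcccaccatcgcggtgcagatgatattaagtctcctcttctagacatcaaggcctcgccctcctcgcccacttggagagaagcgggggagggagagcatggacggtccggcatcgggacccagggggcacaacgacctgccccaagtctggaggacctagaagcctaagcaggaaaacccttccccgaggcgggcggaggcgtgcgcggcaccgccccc
Loxl4 (chr19:42612807-42613056, minus strand): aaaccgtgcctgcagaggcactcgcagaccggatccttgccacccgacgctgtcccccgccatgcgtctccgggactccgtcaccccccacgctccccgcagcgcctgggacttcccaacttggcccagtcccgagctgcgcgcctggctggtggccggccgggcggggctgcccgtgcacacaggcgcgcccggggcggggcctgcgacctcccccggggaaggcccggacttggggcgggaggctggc

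P4ha1 held 1 match to ACGTG, 16 bases before its start, and P4ha2 held 1 match, 78 bases before its start. Plod1 and Loxl4 held none in these windows, and 16.6% of all 32851 windows held at least 1. GGGCGG, the letters of a GC box, was found 3 times in Loxl4, 2 times each in Plod1 and P4ha2 and 1 time in P4ha1, against 32.7% of all windows with at least 1 match on either strand. TATAAA matched in Plod1 alone, 232 bases before its start (12.4% of all windows), TGTGGT in P4ha2 alone (14.0%), and CCAAT in none of the 4 (33.8%). The GC content was 69.6% for P4ha1, 70.0% for P4ha2, 61.6% for Plod1 and 76.0% for Loxl4, all above the median of all windows, 52.4%. These matches describe letters and are not sites shown to be bound.

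**Figure D3:**
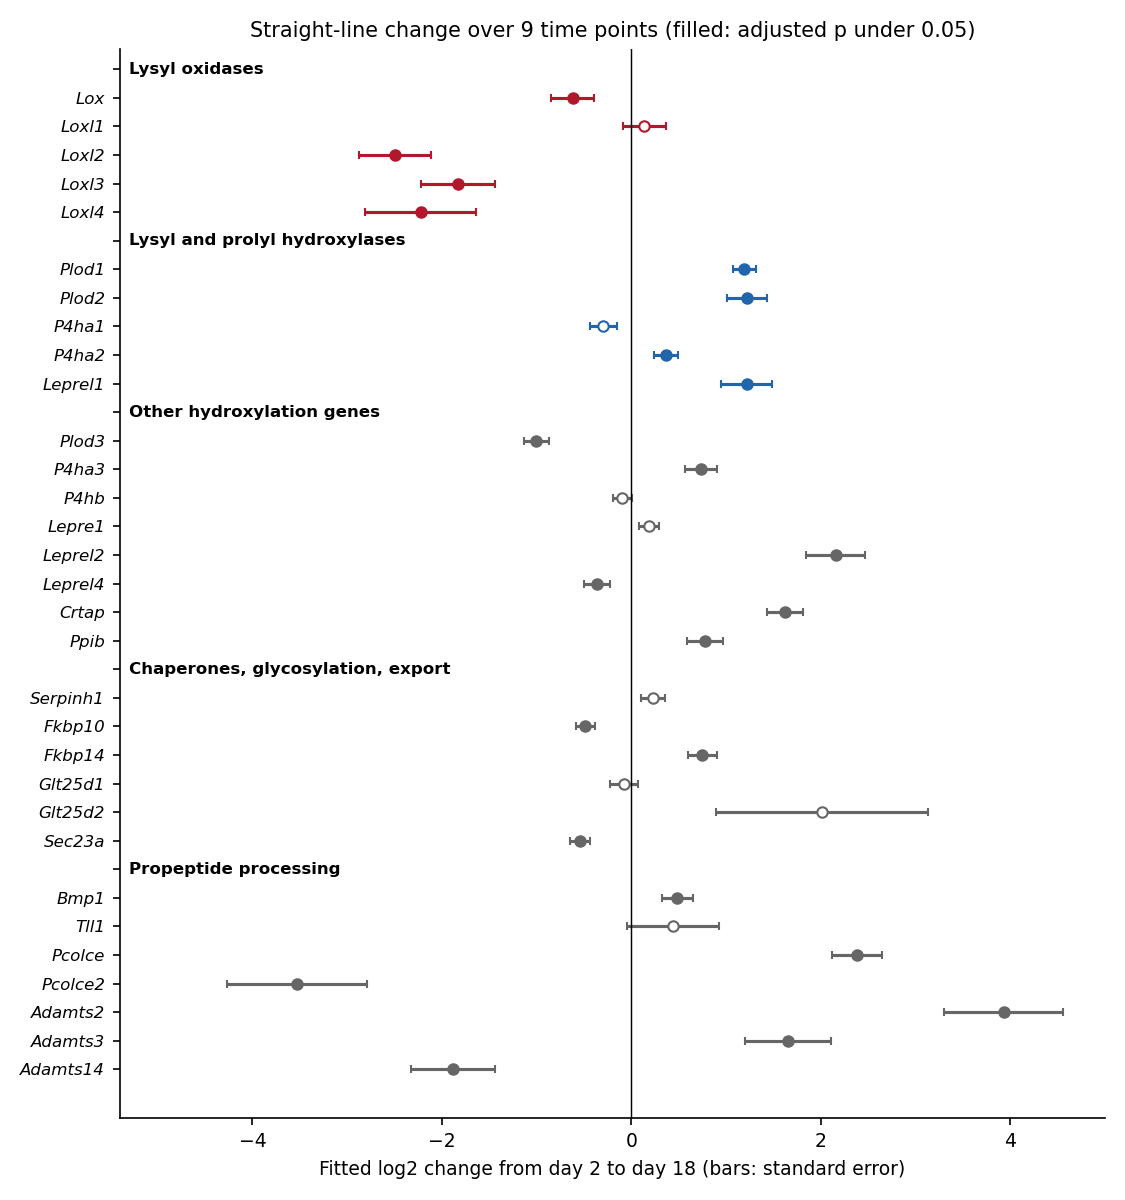
Fitted log2 change from day 2 to day 18 (horizontal axis) with its standard error for the 10 enzymes in colour and 21 other genes of collagen maturation in grey, with filled points for an edgeR adjusted p under 0.05. Loxl2, Loxl3 and Loxl4 lie at -2.49, -1.83 and -2.22, Plod1, Plod2 and Leprel1 at 1.19, 1.22 and 1.22.

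Of 23 further genes of collagen hydroxylation, folding, export and propeptide removal, 21 were tested in the same fit, and 9 rose, 6 fell and 6 did not pass, with a median log2 change of 0.44 against 0.05 over all genes tested. Of all genes tested, 28.3% rose and 26.1% fell. The 8 genes of hydroxylation include the partner subunits and the remaining isoenzymes, and 4 rose and 2 fell (median 0.46). Leprel2, which encodes prolyl 3-hydroxylase 3, had their highest change at 2.16 (SE 0.314, edgeR adjusted p = 0.00031). Plod3, the lysyl hydroxylase with glycosyltransferase activity, had their lowest, -1.004 (SE 0.131, edgeR adjusted p = 0.000179), opposite in sign to Plod1 and Plod2, and its level ran from 59.7 to 118 TPM. Of the 6 tested chaperone, glycosylation and export genes 1 rose and 2 fell (median 0.08). Their highest fitted change, 2.01 for the galactosyltransferase gene Glt25d2, did not pass (SE 1.117, edgeR adjusted p = 0.152) and rests on 87 counts in all, at 0.0129 to 0.197 TPM, and their lowest was -0.54 for Sec23a (SE 0.106, edgeR adjusted p = 0.00171), a coat protein of vesicles that leave the endoplasmic reticulum. Of the 7 tested propeptide-processing genes, 4 rose and 2 fell (median 0.49). Adamts2, the procollagen N-proteinase, had the highest change of these at 3.93 (SE 0.629, edgeR adjusted p = 0.000518), and Pcolce2, an enhancer of the C-proteinase, the lowest at -3.53 (SE 0.736, edgeR adjusted p = 0.00236).

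Among 6 genes of substrate proteins, fibrillar collagens and elastin, 4 rose and none fell (median 1.58), against 28.3% and 26.1% of all genes tested. Eln, elastin, had the highest change at 6.69 (SE 0.996, edgeR adjusted p = 0.000348), and Col5a1 had the lowest, -0.28, which did not pass (SE 0.109, edgeR adjusted p = 0.0507). P4ha1, P4ha2, Plod2 and Lox are known targets of hypoxia-inducible factors, so 12 further genes of that response were read as well. Of the 11 tested, 3 rose, 5 fell and 3 did not pass (median -1.25), with Ndrg1 at 4.54 (SE 0.766, edgeR adjusted p = 0.000703) and Adm at -2.52 (SE 0.439, edgeR adjusted p = 0.00084) at the ends. The part of this response in the levels of these 4 enzymes was not tested.

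Within a library, the ratio of 2 genes does not depend on scaling between libraries. Against day, 5 such ratios were tested by exact two-sided permutation of the 9 time points, with adjustment over the 5. The permutation treats the time points as exchangeable, which neighbouring days of 1 time course may not be, so its p-values may be too small. Lox fell relative to Col1a1, the main substrate chain, from a TPM ratio of 0.629 on day 2 to 0.156 on day 18 (Spearman's rho -0.82, exact p = 0.0108, adjusted p = 0.0179, and Pearson's r of the log2 ratio -0.83, exact p = 0.00215, adjusted p = 0.00539). P4ha1 fell relative to Col1a1 from 0.0275 on day 2 to 0.00853 on day 14 and 0.00956 on day 18 (rho -0.82, exact p = 0.0108, adjusted p = 0.0179, and r -0.88, exact p = 0.002, adjusted p = 0.00539). Both ratios fell at each step up to day 12 and showed no further steady fall, and they share Col1a1, which itself rose (log2 change 1.23, SE 0.232, edgeR adjusted p = 0.00131). Without the first and last day, rho was -0.61 for Lox (exact p = 0.167) and -0.79 for P4ha1 (exact p = 0.048), with r at -0.77 (exact p = 0.0373) and -0.84 (exact p = 0.0202), and neither rho passed after adjustment (adjusted p = 0.278 and 0.12).

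The ratio of P4ha2 to P4ha1 rose from 0.674 on day 2 to 1.26 on day 14 and stood at 0.92 on day 18 (rho 0.82, exact p = 0.0108, adjusted p = 0.0179, and r 0.74, exact p = 0.0254, adjusted p = 0.0423). On day 14 its SD over 3 profiles was 0.242. Without the first and last day rho was 0.86 (exact p = 0.0238, adjusted p = 0.119) and r 0.78 (exact p = 0.0393). The call was lost without lane profile 1 (rho 0.73, exact permutation test, adjusted p = 0.0519) or 2 (rho 0.62, adjusted p = 0.107), and as a ratio of counts it ran from 0.49 on day 4 to 0.865 on day 14. Loxl1 to Lox went from 0.0521 on day 2 to 0.0971 on day 16 without passing (rho 0.62, exact p = 0.0857, adjusted p = 0.107, and r 0.66, exact p = 0.0565, adjusted p = 0.0706). The high point on day 16 depends on transcript length: as a ratio of counts it was 0.0538 on day 16 and highest on day 18, at 0.0628. Plod2 to Plod1 dipped from 13.9 on day 2 to 9.85 on day 10 and came back to 14.1 on day 18, and showed no trend (rho 0.22, exact p = 0.581, and r 0.17, exact p = 0.659, the adjusted values being the same).

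**Figure D4:**
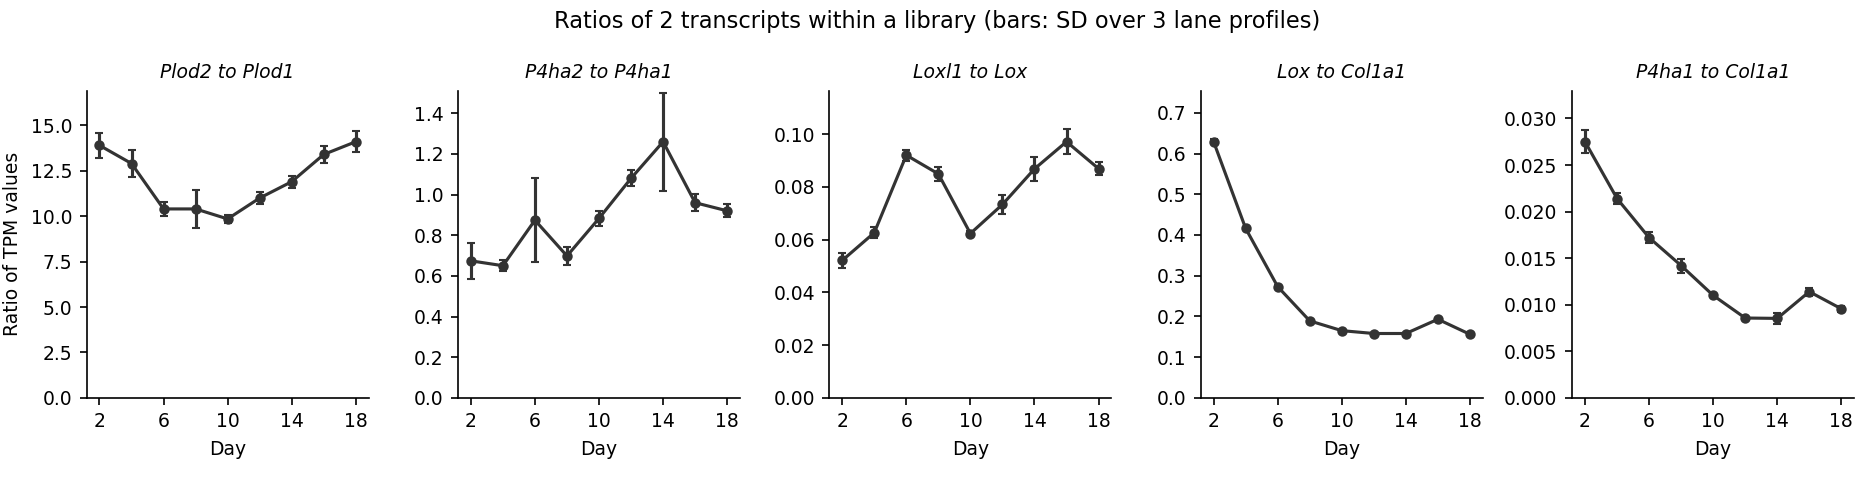
Ratio of the TPM values of 2 genes in the same library (vertical axis from 0) against day, with points for the mean and bars for the SD over 3 lane profiles. Lox to Col1a1 drops from 0.629 to 0.156, whereas Plod2 to Plod1 is lowest on day 10 at 9.85 and ends at 14.1.

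Levels between genes depend on transcript length, and for some enzymes the deposited length is far from that of the coding transcript. RSEM weights the length of a gene by the estimated abundance of its annotated transcripts. For Plod2 this weighted length was 1459 to 1552 bases per day, while its coding transcripts have 3649 and 3663 bases and its other annotated transcripts, both of the retained-intron type, have 844 and 596. Over the 27 profiles, lengths of 1449 to 1563 bases place between 68.3% and 78.6% of the estimated Plod2 transcripts on the retained-intron models. For Loxl3 the weighted length was 1766 to 2038 bases per day, against 4098 and 3252 for the coding transcripts. Over the 27 profiles it ran from 1609 to 2142 bases, which places 39.8% to 71.4% on its non-coding models of 462 and 611 bases. Whether these short models were present in the cells as such cannot be read from gene-level values, and the part of the amplification step was not tested.

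With the length of the longest coding transcript in place of the weighted one, an alternative added after these lengths had been seen, the mean level fell from 506 to 184 TPM for Plod2, from 188 to 78.7 TPM for Loxl3 and from 39.9 to 25.9 TPM for P4ha1. For the other 7 enzymes the deposited level was 1.01 to 1.26 times the recomputed one. By deposited length the order of mean levels was Lox, Plod2, Loxl3, Loxl2, Loxl1, Plod1, P4ha1, P4ha2, Loxl4 and Leprel1. By coding length Loxl2 (138 TPM) came before Loxl3 (78.7 TPM) and P4ha2 (31.1 TPM) before P4ha1 (25.9 TPM). The share of Plod2 in the lysyl hydroxylases was 68.1% to 86.2% by deposited length and 53.1% to 75.2% by coding length, the highest of the 3 genes either way. P4ha3, an alpha subunit named here after its values were seen, held 67.0% to 77.5% of the alpha subunits by deposited length (143 to 278 TPM) and 69.7% to 79.6% by coding length, so that P4ha1 and P4ha2 together were the smaller part on every day. P4ha3 rose by a log2 change of 0.74 (SE 0.17, edgeR adjusted p = 0.00413).

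**Figure D5:**
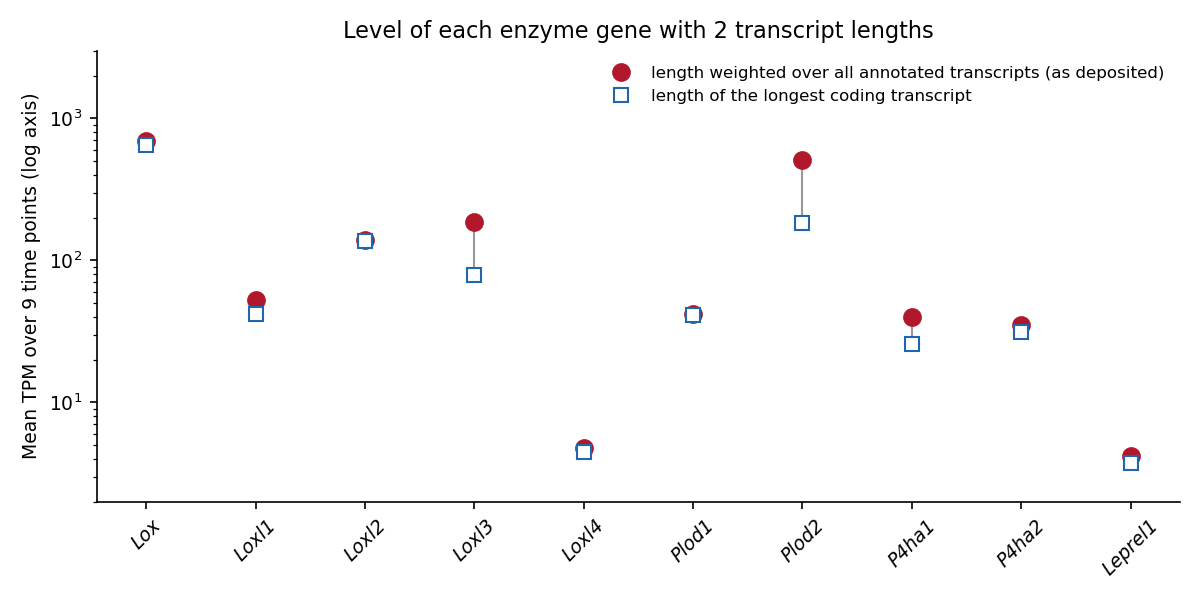
Mean TPM over 9 time points (log axis) for each enzyme with the abundance-weighted transcript length as deposited (filled circles) and with the length of the longest coding transcript (open squares). Plod2 moves from 506 to 184 TPM and Loxl3 from 188 to 78.7 TPM, while Lox, Loxl2, Loxl4 and Plod1 stay close to their deposited level.

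The genes whose time course was most like each enzyme were read by Pearson's r of log2 levels over the 9 time points, among 7619 genes with a mean of at least 10 TPM, as a description of 9 libraries that share their order in time. Loxl2 was most like Rab11a (r = 0.997), Loxl3 most like Ptgs1 (r = 0.982) and Loxl4 most like Plau (r = 0.981), the gene of urokinase. Plod1 was most like Ank2 (r = 0.994) and Plod2 most like Pnpla2 (r = 0.987). The nearest gene was Rhob for Lox (r = 0.979), Mgat2 for Loxl1 (r = 0.949), Traf7 for P4ha1 (r = 0.932), Max for P4ha2 (r = 0.959) and Rreb1 for Leprel1 (r = 0.961). Measured the same way between the enzymes themselves, r was 0.936 for Loxl2 with Loxl3, 0.902 for Loxl2 with Loxl4, 0.851 for Loxl3 with Loxl4 and 0.93 for Plod1 with Plod2, and it was -0.892 for Loxl2 with Plod1. Lox was less close to its relatives, at 0.572 with Loxl2, 0.521 with Loxl4, 0.416 with Loxl1 and 0.281 with Loxl3.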

How the data were processed

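Cells from neonatal calvariae were profiled by RNA sequencing at 9 time points, 27 profiles in all, after NuGEN Ovation amplification and TruSeq library construction. The authors aligned reads with Bowtie 0.12.9 to NCBIM37 transcripts and quantified genes with RSEM, version 1.2.8 in the submitters' processing notes. The expected counts deposited by the authors share multiply matching reads between genes and are not normalized. The deposited TPM values and the deposited FPKM values divide counts by RSEM's effective length, and the authors also deposited that length. Reads were counted over transcripts, and use of strand is not given in the sources used here.

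From the deposited values, estimated counts were added up over the 3 profiles of each day and rounded to whole numbers, and edgeR 4.0.16 in R 4.3.3 fitted day as a straight line and as a natural spline with 3 degrees of freedom (scaling by upper quartiles, minimum count 10 in filterByExpr, quasi-likelihood test, Benjamini-Hochberg adjusted p under 0.05 over all genes). TPM values were divided by the 75th percentile of values above 0 in their profile and rescaled by the mean of these 27 percentiles. Likeness used log2 of TPM plus a pseudocount of 0.5. Ratios were tested with scipy 1.17.1 in Python 3.11.15. The coding-length level replaced the effective length by the length of the longest coding transcript less 279 bases. The code of the fit was tested on simulated counts, which says nothing of the calls made here. Alternatives were TMM factors, DESeq2 1.42.0, other filters, profiles as separate samples without and with a replicate block, each profile number or day left out, early against late days, and counts without the mitochondrial ribosomal RNA genes. The enzymes, the further gene lists and the cell type markers were chosen with earlier results of these data known. Named by rule were the 10 enzymes, the ends of each further list, and the genes most like each enzyme. P4ha3 and the single cell type markers were named outside this rule. Mia3 was not matched, and Tll2, a propeptide-processing gene, and Ankrd37, a hypoxia-response gene, did not pass the filter. Endothelial markers summed to at most 12.1 TPM (2 of 3 tested rose and 1 fell, with Pecam1 and Emcn under 1 TPM), osteoclast markers to 37.6 to 217 TPM (3 of 4 rose, Calcr at 0 counts) and chondrocyte markers to 99.8 to 136 TPM (2 of 4 rose and 1 fell, Matn1 under 1 TPM).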

Additional observations from a re-analysis of the deposited data

How the results depend on the processing

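Over 20 alternatives of the line, 6 to 9 of the 10 enzymes passed the threshold, while 7187 to 10881 of all genes did. Over those of the spline, 7 to 10 enzymes and 7452 to 12857 of all genes passed, so these counts mark no property of the enzymes. Loxl2, Loxl3, Loxl4, Plod1, Plod2 and Leprel1 passed the line in each of the 20. Leaving out a profile number or a day gave Loxl1 log2 changes from -0.0633 to 0.256 (edgeR), with the sign turned without day 18. For P4ha2 to P4ha1, Spearman's rho was 0.62 to 0.77 without 1 profile number (exact permutation tests). Without the first and last day, rho was 0.86 for P4ha2 to P4ha1, -0.61 for Lox to Col1a1 and -0.79 for P4ha1 to Col1a1, and none of these passed after adjustment over 5 ratios, with fewer time points in the test. Replicate numbers did not pair the profiles: deviations of same-numbered profiles correlated at a mean r of 0.003 (5 of 108 pairs over 0.1). With 27 profiles as separate samples the line called 10754 genes, and with the replicate block 10881, against 8510 for summed libraries. With the block, 9 enzymes passed the line, P4ha1 being added at -0.30 (edgeR adjusted p = 0.00141). The spline with the block called 10 enzymes and 12857 of all genes. These fits treat lanes as replicates. Depth limits Loxl4 and Leprel1 most, with 102 and 148 counts in their lowest libraries, and with 1 library a day no step between neighbouring days can be tested.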
